A study of Homo sapiens with 6 samples.

Results

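Small nucleolar RNAs (snoRNAs) and small Cajal body RNAs (scaRNAs) were followed in 6 RNA sequencing libraries of human prostate cancer cells. The genes were the rows whose symbol begins with SNORD, SNORA or SCARNA and whose mean was at least 20 raw counts over the 6 libraries. Of 21512 rows in the table, 387 carried such a symbol, 257 of them SNORD, 106 SNORA and 24 SCARNA. The minimum was met by 54, namely 39 box C/D RNAs (SNORD), 10 H/ACA RNAs (SNORA) and 5 scaRNAs. Of the other rows, 126 were at 0 in every library and 207 were above 0 but under the minimum. Just inside it were SCARNA22 with a mean of 20.2 counts, SNORD116-21 with 21.2 and SNORA8 with 21.3. Just outside were SNORD5 with 19.7, SNORD71 with 19.5 and SNORD45C with 19.0.

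The libraries came from 2 lines under 3 treatments, 1 library each. BicR is described in the labels only as prostate cancer, and LNCaP is an established androgen-responsive line. Both were starved of steroid for 3 days (2.5% stripped serum, no phenol red) and then spent 24 h with 10 nM dihydrotestosterone (DHT, an androgen), 1 µM bicalutamide (an antiandrogen) or ethanol, the vehicle. Total counts per library ran from 42162723 to 55917016. All 9 luminal prostate markers were present, at 88.3 to 5259 CPM (counts scaled to library size), while immune markers did not exceed 0.16 CPM and basal markers did not exceed 0.978 CPM. Endothelial markers reached 10.8 CPM and fibroblast markers 45.9 CPM.

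Box C/D RNAs guide ribose methylation and H/ACA RNAs guide pseudouridylation, mostly of ribosomal RNA, while scaRNAs guide the same changes on spliceosomal RNAs in Cajal bodies. In human cells most of them are cut out of the introns of host genes, many of which encode ribosomal proteins or are noncoding carriers such as GAS5 and SNHG1. A snoRNA is trimmed from the debranched intron and protected by its core proteins, so its level and that of the spliced host transcript are separate quantities. In bulk RNA, fewer cells with a transcript and less of it per cell cannot be told apart.

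An annotated host was found for all 54 RNAs, and 47 of them had a host with its own row, 32 hosts in all. Ribosomal protein genes, 13 of them, hosted 17 of the RNAs. GAS5 and SNHG1 hosted 5 each, RPL13A and TAF1D 3 each, and NOP56 2. The gene length implied by counts and RPKM (the authors' reads per unit of length and depth) lay within 3% of the RefSeq length for 52 of the 54, so the rows were counted over the small RNA itself. Whether counting used strand is not given in the sources used here, and reads of unspliced host RNA or of host exons that overlap a small RNA cannot be told apart from its own. The median length was 75.0 nt in the box C/D class, 135.5 nt in the H/ACA class (121 to 149 nt) and 353.0 nt among the scaRNAs (125 to 421 nt).

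The RNAs on which the results below turn are shown as in GENCODE v29, 5′ to 3′, in DNA letters. Capitals mark TGATG within the first 20 nt (the core of box C) and CTGA starting within the last 12 nt (box D), or ACA within the last 6 nt of an H/ACA RNA. The first 4 are among the box C/D RNAs that were highest against ethanol in LNCaP under bicalutamide.
SNORD116-29: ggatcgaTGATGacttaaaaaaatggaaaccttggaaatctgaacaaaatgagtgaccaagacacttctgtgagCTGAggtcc
SNORD41: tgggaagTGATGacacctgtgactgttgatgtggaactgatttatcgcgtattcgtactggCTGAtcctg
SNORD57: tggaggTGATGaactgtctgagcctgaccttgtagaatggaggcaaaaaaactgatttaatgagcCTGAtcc
SNORD42A: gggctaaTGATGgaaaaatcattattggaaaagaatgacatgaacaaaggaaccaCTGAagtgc
SNORD34 was the lowest in the same comparison.
SNORD34: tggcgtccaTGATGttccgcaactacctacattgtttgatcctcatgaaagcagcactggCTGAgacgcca
SNORD88C and SNORD88B lie in the same host and were the pair followed under DHT.
SNORD88C: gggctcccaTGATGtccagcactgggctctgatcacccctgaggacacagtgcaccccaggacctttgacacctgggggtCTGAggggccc
SNORD88B: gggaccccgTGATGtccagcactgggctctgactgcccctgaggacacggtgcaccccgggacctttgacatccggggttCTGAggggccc
SNORA57 and SNORA6 were the H/ACA RNAs with the highest differences under DHT in LNCaP.
SNORA57: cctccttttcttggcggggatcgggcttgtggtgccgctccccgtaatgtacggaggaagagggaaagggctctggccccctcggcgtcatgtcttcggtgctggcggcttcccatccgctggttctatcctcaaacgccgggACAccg
SNORA6: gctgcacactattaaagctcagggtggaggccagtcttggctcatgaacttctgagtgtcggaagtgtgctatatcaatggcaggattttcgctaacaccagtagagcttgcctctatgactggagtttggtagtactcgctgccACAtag

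Both boxes were found at these places in 25 of 32 box C/D members with an entry off chromosome 8, against 75.3% of all 275 SNORD entries. The letters were chosen after matches had been seen. The search first used TGATGA, with which 17 of the 32 members and 64.0% of all entries had both boxes. The shorter letters also take in RNAs whose next base is not A, such as SNORD34, SNORD42A and the SNORD88 RNAs above. ACA was found in 10 of 10 H/ACA members and in 90.1% of 142 SNORA entries. A match describes the letters only.

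Levels per length differed widely among the members. The median of the mean RPKM was 9.19 for box C/D RNAs (2.91 to 94.1), 5.14 for H/ACA RNAs and 2.20 for scaRNAs. SNORD44, a guide for the small-subunit rRNA carried by GAS5, was highest with a mean of 94.1 RPKM. SNORD104, a large-subunit guide, followed with 87.3 RPKM and had the highest mean count. The next were SNORD41 (55.8 RPKM) and SNORD26 (44.2 RPKM), both large-subunit guides. Among H/ACA RNAs SNORA18 was highest with 16.5 RPKM and among scaRNAs SCARNA9, a guide for a spliceosomal RNA, with 8.63 RPKM.

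Summed over a class, box C/D RNAs reached 70.9, 80.9 and 79.0 CPM in BicR under DHT, bicalutamide and ethanol, and 49.98, 109.7 and 54.8 CPM in LNCaP. The LNCaP bicalutamide library was thus the highest of the 6. H/ACA RNAs summed to 15.3, 11.99 and 12.003 CPM in BicR and to 15.8, 11.7 and 10.2 CPM in LNCaP in the same order, with both DHT libraries highest. The scaRNAs summed to 9.71, 8.91 and 9.56 CPM in BicR and to 5.14, 9.70 and 3.90 CPM in LNCaP.

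**Figure D1:**
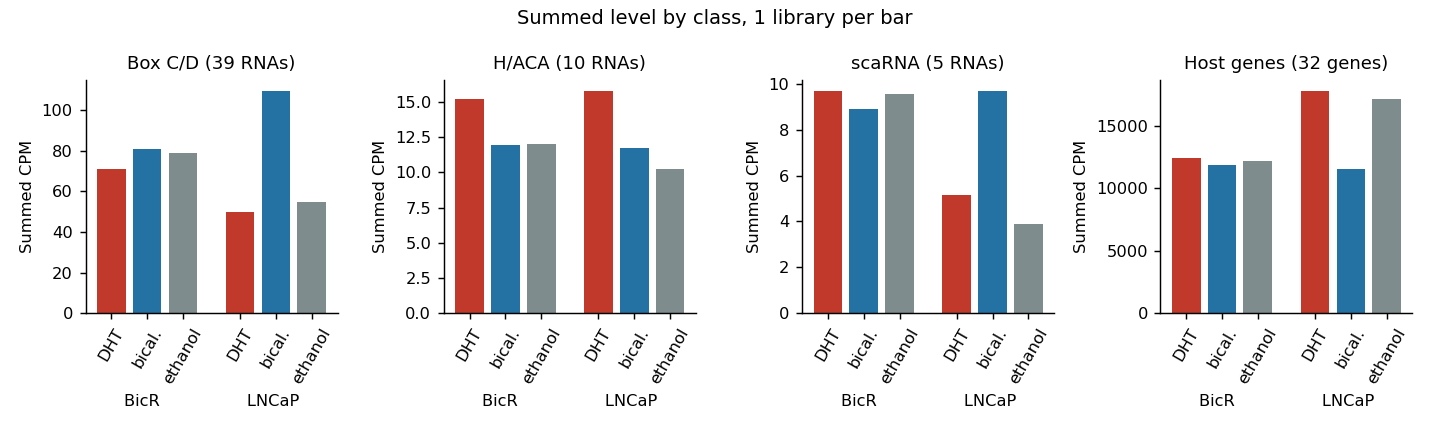
Summed CPM (vertical axes, from 0) of the 39 box C/D RNAs, 10 H/ACA RNAs, 5 scaRNAs and their 32 host genes, 1 bar per library. Box C/D RNAs were highest in LNCaP under bicalutamide at 109.7 CPM, a library in which the hosts summed to 11538 CPM against 17178 CPM in LNCaP under ethanol.

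The first question was whether the androgen changed these RNAs. SNORD88C was the one member that stood out in both lines under DHT. SNORD88C had 72, 16 and 13 counts in BicR under DHT, bicalutamide and ethanol, and 73, 15 and 10 counts in LNCaP. Both DHT libraries lay above all 4 others. SNORD88C met the count minimum only through these DHT libraries, since each of its other 4 counts lay below that minimum. Its place among the members thus depended on the libraries in which it was high. Against ethanol the ratio of CPM was 6.88 in BicR (95% counting interval 3.78 to 13.5) and 6.72 in LNCaP (3.46 to 14.6). Intervals on ratios are exact, condition on the summed count and cover counting error only.

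Over both lines SNORD88C had a log2 fold change of 2.75 (SE 0.44) with DHT, and the adjusted p in edgeR's quasi-likelihood test was 0.0864, which missed the threshold of 0.05. The adjusted p was 0.0159 to 0.573 over the alternatives. Among fits of all 6 libraries it passed with DESeq2 (0.0225), with total counts in place of scaled sizes (0.0167) and with no filter on low counts (0.0159). In that test 0 of 54 members were called higher and 0 lower, against 0.158% and 0.0072% of the 13885 genes tested. At an unadjusted p under 0.05, 2 members were higher, SNORD88C and SNORA18, and 0 were lower, against 2.74% and 2.89% of all genes. The median log2 fold change of the members was -0.07, against 0.01 over all genes tested, and its sign was not stable. Leaving out 1 library at a time it ran from -0.31 without LNCaP ethanol to 0.30 without BicR ethanol, and it was 0.02 without LNCaP DHT.

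SNORD88C guides methylation of the large-subunit rRNA and lies within C19orf48. The host had 691, 223 and 231 CPM in BicR under DHT, bicalutamide and ethanol, and 436, 157 and 216 CPM in LNCaP. Its ratio against ethanol was 2.99 in BicR and 2.01 in LNCaP, below that of SNORD88C in both lines. SNORD88B, in the same host and under the minimum, had 25, 16 and 7 counts in BicR and 27, 8 and 9 counts in LNCaP in the same order. SNORD88A, also under the minimum, had 11, 6 and 2 counts in BicR and 2, 7 and 1 in LNCaP, where DHT was not its highest library. SNORD88C differs from SNORD88A and from SNORD88B by 11 edits, so short reads could be split among them. The host neighbours the kallikrein genes in RefSeq. One of these, KLK3, which encodes prostate-specific antigen, had a ratio with DHT of 3.87 in BicR and 3.75 in LNCaP.

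Within each line, log2(CPM + 1) values were subtracted, a scale on which low genes change too little, and differences were counted from 2-fold upward. With 1 library per line and treatment these differences carry no replicate check and no test. Under DHT in BicR, 1 of 54 members was at least 2-fold higher than under ethanol, SNORD88C at 1.12, and 0 were lower, against 1.45% and 0.922% of all genes. In LNCaP 0 were higher and 0 lower, against 1.4% and 1.19%. Both shares of members are near these backgrounds.

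Of the 10 H/ACA RNAs 8 lay above 0 with DHT in BicR, with a median difference of 0.09, and 8 in LNCaP, with a median of 0.25. Over all genes 50.3% and 51.6% lay above 0, with medians of 0.00 and 0.01. Against bicalutamide in place of ethanol 5 of 10 lay above 0 in BicR and 7 in LNCaP, against 50.7% and 49.3% of all genes. SNORA18 had 184, 150 and 118 counts in BicR under DHT, bicalutamide and ethanol, and 217, 168 and 128 counts in LNCaP. Its DHT library was the highest in each line, and its log2 fold change with DHT over both lines was 0.80 (SE 0.30, adjusted p 0.784 in edgeR). SNORA57, a small-subunit guide, had 68, 82 and 74 counts in BicR and 154, 66 and 48 counts in LNCaP. The LNCaP DHT library stood alone, with a ratio to ethanol of 2.95 (2.12 to 4.18), while its host METTL12 was at 0.824. SNORA6, carried by the ribosomal protein gene RPSA, had 51, 71 and 45 counts in BicR and 100, 17 and 38 in LNCaP, a ratio with DHT in LNCaP of 2.42 (1.65 to 3.62). SNORA8 went the other way in LNCaP, with a ratio of 0.450 (0.253 to 0.775).

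Box C/D RNAs had lower medians with DHT, at -0.16 in BicR and -0.03 in LNCaP. The lowest in BicR on the log2(CPM + 1) scale was SNORD41, with a difference of -0.94. It had 163, 253 and 437 counts under DHT, bicalutamide and ethanol and a DHT ratio of 0.463 (0.385 to 0.556). By ratio SNORD28, at 0.325 (0.194 to 0.525), and SNORD56, at 0.191 (0.0784 to 0.405), were lower in the same comparison. The lowest in LNCaP were SNORD45A at 0.378 (0.262 to 0.538), SNORD58A at 0.321 (0.166 to 0.590) and SNORD24 at 0.356 (0.191 to 0.635). SNORD44 differed between the lines, with a DHT difference of -0.42 in BicR and 0.58 in LNCaP. Over all classes, 37 of 54 members had the same sign in both lines under DHT, against 55.5% of genes in the members' range of mean counts.

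**Figure D2:**
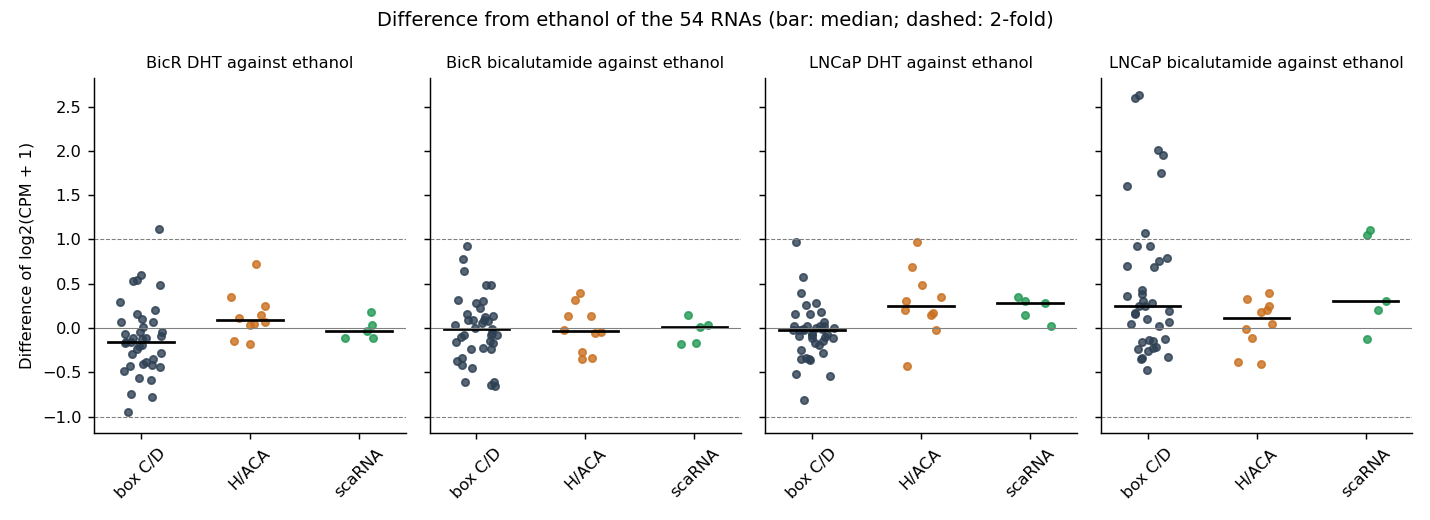
Difference of log2(CPM + 1) from ethanol (vertical axis) for each of the 54 RNAs by class in 4 comparisons, 1 point per RNA, with the class median as a bar and 2-fold as dashed lines. Under bicalutamide in LNCaP 9 points lie above the upper line, and in BicR none does.

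The second question was whether the antiandrogen changed them. In LNCaP under bicalutamide 9 of 54 members were at least 2-fold higher than under ethanol and 0 were lower, against 1.08% and 1.52% of all genes, and against 1.97% and 1.46% of the 4168 genes within the members' range of mean counts. The count depended on the pseudocount of 1. It was 16 with one of 0.1 and 3 with one of 5, against 2.18% and 0.324% of all genes on those scales. In RPKM it was 16, against 0.49%. Among genes in the members' range of mean counts the shares were 5.33%, 0.192% and 0.6% in the same order. The 9 were SNORD116-29, SNORD44, SNORD41, SNORD55, SNORD57, SNORD79, SNORD42A, SCARNA9 and SCARNA17, so 7 of 39 box C/D RNAs, 2 of 5 scaRNAs and 0 of 10 H/ACA RNAs. In BicR under bicalutamide 0 were higher and 0 lower, as over all genes, where the shares were 0.0% and 0.0%. Over both lines 0 of 54 were called higher and 0 lower by edgeR, against 0.0% and 0.0% of all genes. DESeq2 also called 0. At an unadjusted p under 0.05, 6 members were higher and 0 lower, against 0.375% and 0.641% of all genes.

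SNORD44 had 6.18, 10.2 and 8.60 CPM in BicR under DHT, bicalutamide and ethanol, and 3.96, 19.1 and 2.32 CPM in LNCaP. The LNCaP bicalutamide library was the highest and LNCaP ethanol the lowest of the 6. The ratio to ethanol was 8.24 (6.79 to 10.1) in LNCaP, and the log2 fold change over both lines was 1.64 (SE 0.56, adjusted p 0.996 in edgeR). SNORD41, a large-subunit guide in an intron of TNPO2, had 163, 253 and 437 counts in BicR and 142, 626 and 112 in LNCaP. Its ratio to ethanol in LNCaP was 5.36 (4.37 to 6.61), while in BicR bicalutamide lay below ethanol at 0.614 (0.523 to 0.718).

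SNORD116-29 belongs to the imprinted cluster on chromosome 15 that is lost in Prader-Willi syndrome, and no rRNA target is established for the SNORD116 family. It had 23, 53 and 57 counts in BicR under DHT, bicalutamide and ethanol, and 26, 434 and 25 counts in LNCaP. One library held most of its reads, with a ratio of 16.6 (11.1 to 26.0) to ethanol. The other 28 SNORD116 rows together had 96, 93 and 125 counts in BicR and 89, 183 and 113 counts in LNCaP, a much smaller difference. SNORD116-29 differs from the other copies by 13 to 39 edits, whereas SNORD116-21 is 1 edit from its nearest copy and its reads are uncertain. In the same locus the ratios in LNCaP under bicalutamide were 1.67 for the noncoding IPW, 2.05 for PAR5 and 1.96 for PAR-SN, but 0.934 (0.675 to 1.29) for SNRPN and 0.536 (0.289 to 0.966) for SNURF. Of the 42 SNORD115 rows 41 were at 0 in every library, and all 38 rows of SNORD113 and SNORD114, of the imprinted cluster on chromosome 14, were at 0.

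SNORD55 had 88, 124 and 162 counts in BicR under DHT, bicalutamide and ethanol, and 38, 315 and 41 in LNCaP, with a LNCaP ratio of 7.36 (5.31 to 10.5). SNORD57, a small-subunit guide in NOP56, had 92, 137 and 134 counts in BicR and 78, 298 and 50 in LNCaP, with a ratio of 5.71 (4.22 to 7.87). SNORD79, a large-subunit guide in GAS5, had 26, 39 and 58 counts in BicR and 23, 170 and 20 in LNCaP, with a ratio of 8.14 (5.11 to 13.7). All 3 had their highest count of the 6 libraries in LNCaP under bicalutamide. SNORD42A, a small-subunit guide in RPL23A, had 10, 38 and 35 counts in BicR and 8, 82 and 11 in LNCaP, with a ratio of 7.14 (3.79 to 14.9). SCARNA9 had 248, 244 and 299 counts in BicR and 121, 305 and 109 in LNCaP, with a ratio of 2.68 (2.15 to 3.37). Its host KIAA1731 was at 2.46. On the log2(CPM + 1) scale it was the 1 host of the 32 that was at least 2-fold higher, and 1 was lower. Over all genes the shares were 1.08% and 1.52%.

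Some members lay below ethanol in the same comparison. SNORD104 had 561, 583 and 484 counts in BicR under DHT, bicalutamide and ethanol, and 441, 473 and 532 in LNCaP, with a LNCaP bicalutamide ratio of 0.852 (0.751 to 0.966). SNORD34, in RPL13A, had 2.77, 3.11 and 3.34 CPM in BicR and 2.95, 2.61 and 4.001 CPM in LNCaP, with a ratio of 0.652 (0.520 to 0.814). SNORD27, in SNHG1, was at 0.739 (0.603 to 0.904), SNORA6 at 0.429 (0.227 to 0.778) and SNORA8 at 0.490 (0.279 to 0.838). In all, the counting interval lay above 1 for 22 members and below 1 for 7, against 29.2% and 23.4% of genes in the same count range. By length, the 7 box C/D RNAs that were at least 2-fold higher were 61 to 85 nt (median 72.0) and the other 32 had a median of 76.5 nt.

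**Figure D3:**
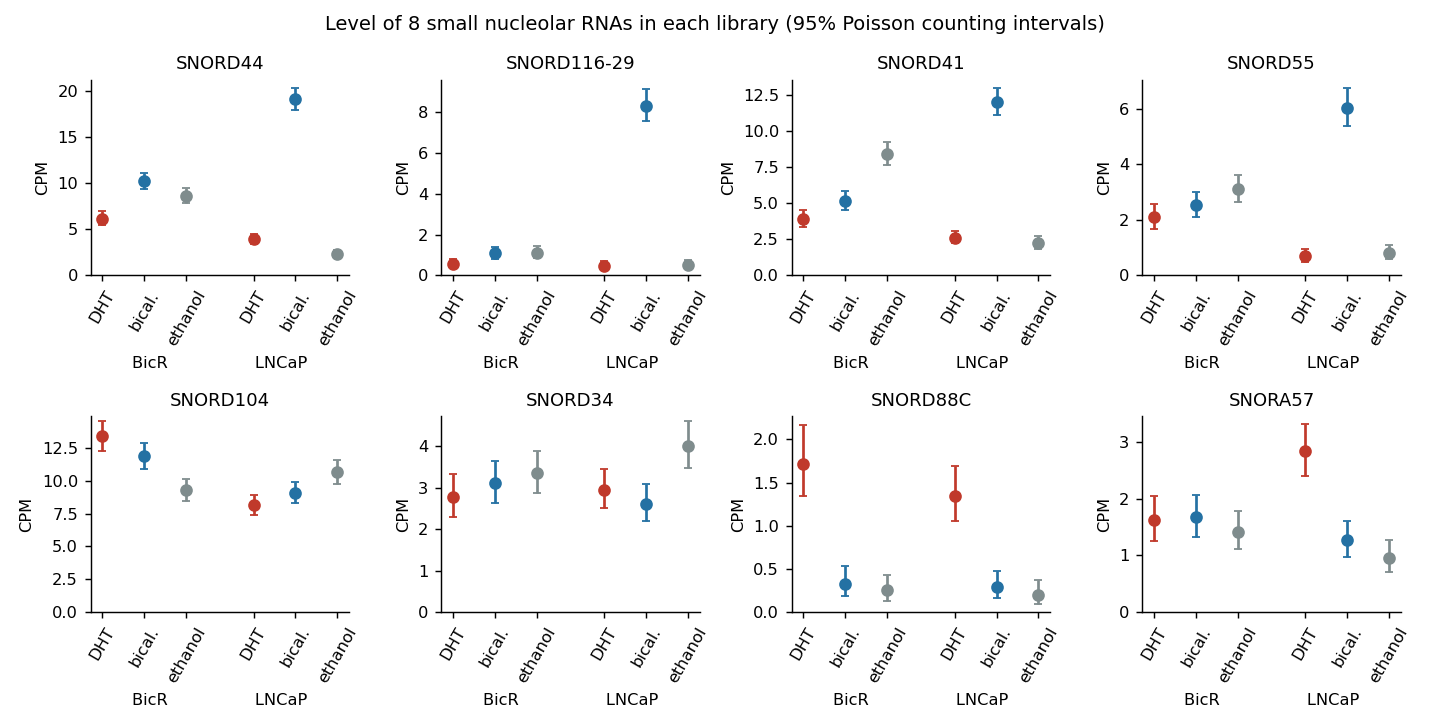
CPM (vertical axes, from 0) of 8 RNAs in each of the 6 libraries, with 95% Poisson intervals that cover counting error only. SNORD44, SNORD116-29, SNORD41 and SNORD55 are highest in LNCaP under bicalutamide, SNORD104 and SNORD34 are not, SNORD88C is highest in both DHT libraries and SNORA57 in LNCaP under DHT.

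The count was as large against another LNCaP library. Against LNCaP under DHT in place of ethanol, a comparison added after the data had been seen, 9 members were at least 2-fold higher under bicalutamide and 1, SNORA6, was lower, against 0.893% and 1.58% of all genes. Of these 8 were shared, with SNORD1C in place of SCARNA17. The 2 comparisons share the bicalutamide library. Of the 39 box C/D RNAs 16 had their highest CPM in that library, while 14 had their lowest in LNCaP under DHT and 10 in LNCaP under ethanol. The share of all genes that were highest or lowest in these libraries is not given here. The counts therefore describe the members only, and whether they are unusual was not tested.

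Some other noncoding RNAs, picked after their values were seen, were also higher in LNCaP under bicalutamide than under ethanol. Noncoding snoRNA hosts as a list were not, since 5 of the 17 tested lay above 0, with a median difference of -0.16. Over all genes 51.5% lay above 0, with a median of 0.01. RMRP, the noncoding RNA of an rRNA-processing ribonuclease, had 129, 118 and 109 counts in BicR under DHT, bicalutamide and ethanol, and 33, 217 and 14 in LNCaP. RPPH1, the RNA of ribonuclease P, had 73, 70 and 64 counts in BicR and 34, 90 and 25 counts in LNCaP, which are 1.74 CPM in BicR under DHT and 1.73 CPM in LNCaP under bicalutamide. MALAT1, a long nuclear RNA, had 731, 561 and 488 CPM in BicR and 1232, 2143 and 569 CPM in LNCaP. Unlike the box C/D sums, MALAT1 was thus higher with DHT than with ethanol in both lines. KCNQ1OT1, another long noncoding RNA, was at 19.0 CPM in LNCaP under bicalutamide but highest in BicR under DHT at 21.3 CPM. RMRP and MALAT1 were highest in LNCaP under bicalutamide, while for RPPH1 that library was the highest within LNCaP but close to BicR under DHT. Whether a difference in RNA isolation or library preparation had a part in the result was not tested.

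In LNCaP under bicalutamide the members did not follow their hosts. Of 47 members with a host row 34 had a higher ratio than the host, and the median log2 ratio of the hosts, counted once per member, was -0.40. Across these 47 pairs Pearson's r of the log2 ratios was -0.02, a description only, since several members share a host and all share the same pair of libraries. In BicR under bicalutamide 24 of 47 lay above the host, and the median of the hosts was -0.02.

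**Figure D4:**
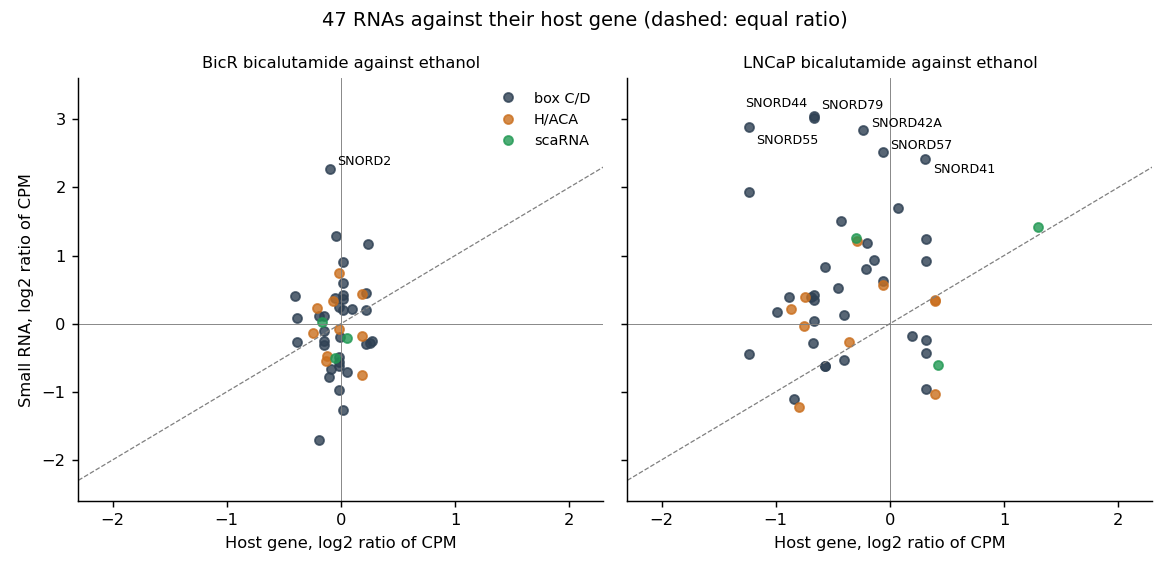
Log2 ratio of CPM of 47 RNAs (vertical axis) against that of their host gene (horizontal axis), bicalutamide over ethanol, in BicR and in LNCaP, with equal ratios as a dashed line. In LNCaP 34 of 47 points lie above the line, and in BicR 24 of 47.

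RNAs of one host differed from each other. GAS5 itself was at a ratio of 0.632 in LNCaP under bicalutamide. SNORD44 and SNORD79 were far above it, while SNORD47 was at 1.27 (0.987 to 1.65), SNORD76 at 1.02 (0.776 to 1.35) and SNORD80 at 1.34 (0.950 to 1.89).

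SNHG1 was at 1.24. SNORD26 was at 1.90 (1.57 to 2.31) and SNORD28 at 2.37 (1.63 to 3.52), while SNORD27 was at 0.739, SNORD30 at 0.516 (0.288 to 0.899) and SNORD31 at 0.843 (0.626 to 1.13). In NOP56, whose own ratio was 0.957, SNORD57 was at 5.71 and SNORD56 at 1.54 (0.978 to 2.45). RPL13A was at 0.673, with SNORD33 at 1.78 (1.12 to 2.91), SNORD34 at 0.652 and SNORD32A at 0.653 (0.397 to 1.06). So within each of these 4 hosts some intervals did not overlap.

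**Figure D5:**
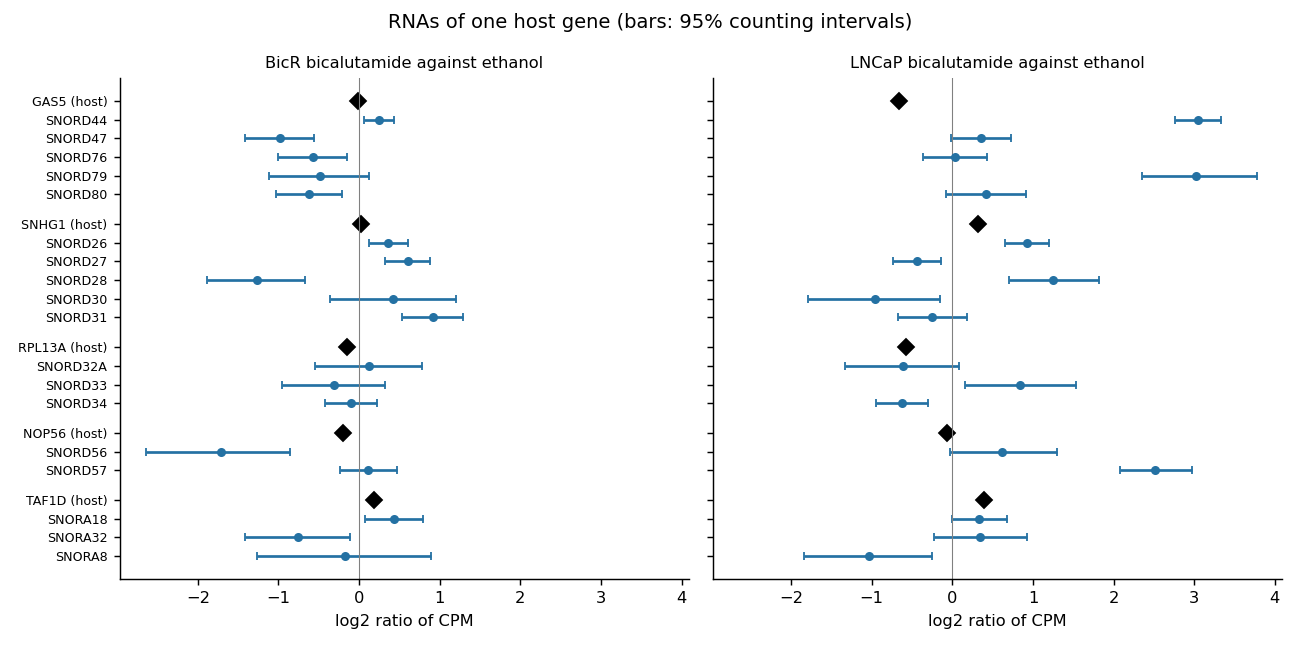
Log2 ratio of CPM, bicalutamide over ethanol, for 5 host genes (diamonds) and the RNAs they carry (circles, with 95% counting intervals) in BicR and in LNCaP. In LNCaP SNORD44 and SNORD79 stand apart from the other RNAs of GAS5, and SNORD57 from SNORD56 of NOP56.

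In BicR under bicalutamide the largest differences were of other RNAs. SNORD2, in EIF4A2, had 21, 73 and 16 counts in BicR under DHT, bicalutamide and ethanol, and 17, 16 and 8 in LNCaP. The BicR bicalutamide library stood alone, with a ratio of 4.84 (2.79 to 8.90), and SNORD2 met the count minimum only through that library. Its place among the members thus depended on the library in which it was high. Its log2 fold change over both lines was 1.75 (SE 0.55, adjusted p 0.996 in edgeR). SNORD100 was at 2.45 (1.75 to 3.45) and SNORD31 at 1.88 (1.45 to 2.45). The lowest were SNORD47 at 0.508 (0.377 to 0.680), SNORD28 at 0.416 (0.270 to 0.630) and SNORD56 at 0.306 (0.160 to 0.551). Counting intervals lay above 1 for 10 members and below 1 for 10, against 8.11% and 9.48% of genes in the same count range. SNORD69, a box C/D RNA in GNL3, had a ratio of 2.25 (1.36 to 3.83) in BicR and 2.27 (1.30 to 4.11) in LNCaP.

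Between the lines, 4 members were at least 2-fold higher in BicR than in LNCaP under ethanol and 0 lower, against 2.62% and 3.88% of all genes. These were SNORD41, SNORD44, SNORD55 and SCARNA9, with ratios of 3.75 (3.04 to 4.65), 3.71 (3.02 to 4.59), 3.79 (2.68 to 5.48) and 2.63 (2.11 to 3.31). Under DHT 1 was higher, SCARNA9, and 0 lower, against 2.81% and 4.7%. Under bicalutamide 0 were higher and 3 lower in BicR, against 0.684% and 1.27%, namely SNORD116-29 at 0.130 (0.0956 to 0.173), SNORD79 at 0.244 (0.167 to 0.347) and SNORD41 at 0.429 (0.369 to 0.497). These comparisons use the same 6 libraries as those within the lines. Over the treatments edgeR called 0 members higher and 0 lower, against 1.58% and 2.84% of all genes, and DESeq2 also called 0. At an unadjusted p under 0.05, 3 were higher and 0 lower, against 10.6% and 14.2%. SNORD2 had the smallest p, with a log2 fold change of 1.37 (SE 0.45, adjusted p 0.115 in edgeR). It met the count minimum only through the BicR bicalutamide library.

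The proteins that carry these RNAs showed no call in the additive fits. Those fits called 0.0% of all genes with bicalutamide, and 0.158% higher and 0.0072% lower with DHT. Between the lines the shares were 1.58% and 2.84%, so the lack of calls in lists this small says little. Of 5 box C/D core proteins tested, 0 passed in any contrast. Their median difference in LNCaP under bicalutamide was -0.51, with 1 of 5 above 0, against a median of 0.01 and 51.5% above 0 over all genes. FBL, the methyltransferase fibrillarin, was at a ratio of 0.699 and NHP2L1, which binds the box C/D fold first, at 0.514. Of 4 H/ACA core proteins 0 passed, with a median of -0.22 in that comparison. Of 13 assembly factors 0 passed, with a median of -0.03. Of 7 Cajal body proteins 0 passed, and 7 of 7 lay above 0 with a median of 0.21. Of 19 enzymes of lariat debranching and trimming 0 passed, with a median of 0.29. In BicR under bicalutamide the medians of these 5 lists lay between -0.11 and 0.00.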

How the data were processed

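Total RNA was sequenced on a SOLiD platform, per the labels' protocols. The authors deposited raw counts per gene symbol and RPKM per library, per the file headers, on hg19, per the submitters' processing notes. Which aligner, counter, gene models and strand setting were used is not given in the sources used here. A mean of 20 or more counts was required, which kept 13885 genes. Counts were scaled by TMM, and an additive model (line plus treatment) was fitted with edgeR 4.0.16 (R 4.3.3), with Benjamini-Hochberg adjustment at 0.05, 2 residual and 6.8 prior degrees of freedom, and was tested on simulated data. In it a response in 1 line alone counts as error. DESeq2 1.42.0 and limma 3.58.1 served as alternatives, and the authors' RPKM as another scale. Nothing says that the libraries repeat cultures, so the spread behind the p-values may be technical. Within a line, log2(CPM + 1) differences and count ratios with exact 95% intervals were computed in Python 3.11.15. Depth of 42162723 to 55917016 counts limits low members. Hosts and sequences came from GENCODE v29 and RefSeq, on a newer build, so no coordinates are given.

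The members and gene lists were chosen with earlier results of these data known. Named genes were the 4 members of highest mean count per class, per comparison with ethanol within a line the 3 highest and 3 lowest box C/D and the 2 highest and 2 lowest H/ACA RNAs, per contrast the members that passed or else the 3 of smallest p, SNORD116-29, SNORD44 and SNORD69, and the RNAs of GAS5, SNHG1 and the SNORD115 and SNORD116 clusters. Not every gene picked by this rule is described, and 1 host gene and 1 sequence are not reported here. Members at least 2-fold different, RNAs of RPL13A and NOP56, SNORD88A and SNORD88B, and the noncoding RNAs beside the members were named after their values were seen. The box C letters were shortened from TGATGA to TGATG after matches were seen.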

Additional observations from a re-analysis of the deposited data

Results flagged for a closer look

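For 10 combinations of member and treatment the differences from ethanol on the log2(CPM + 1) scale ran in opposite directions in BicR and LNCaP, with both counting intervals excluding a ratio of 1. These were 3 of 54 members under DHT and 7 of 54 under bicalutamide, against 9.21% and 5.97% of genes in the members' range of mean counts. In all, 37 of 54 members had the same sign in both lines under DHT and 26 of 54 under bicalutamide, against 55.5% and 48.8% of those genes. With 1 library per line and treatment the difference between the lines was not tested. Under DHT, SNORD104 had 0.48 in BicR and -0.35 in LNCaP, SNORD27 had 0.29 in BicR and -0.35 in LNCaP, and SNORD44 had -0.42 in BicR and 0.58 in LNCaP. Under bicalutamide, SNORD41 had -0.61 in BicR and 2.004 in LNCaP. SNORD28 had -0.64 in BicR and 0.69 in LNCaP, SNORD99 had -0.45 in BicR and 0.93 in LNCaP, and SNORA67 had -0.34 in BicR and 0.40 in LNCaP. In the other direction, SNORA6 had 0.39 in BicR and -0.41 in LNCaP, SNORD27 had 0.49 in BicR and -0.35 in LNCaP, and SNORD104 had 0.32 in BicR and -0.21 in LNCaP.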

How the results depend on the processing

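No paired analysis was possible because each line and treatment had 1 library and the labels carry no replicate numbers; the cell line is a term of the additive fit. Over both lines, the count of members called higher with DHT was 0. With all 6 libraries kept, it was 1 (SNORD88C) under total counts, under no filter and under DESeq2. The shares of all genes were 0.411%, 0.356% and 0.54%. Some fits that left out 1 library also called members higher or lower with DHT, or lower between the lines. In such a fit a treatment rests on 1 library. Leaving out 1 library at a time, the members' median with DHT ran from -0.31 without LNCaP ethanol to 0.30 without BicR ethanol. For bicalutamide the count called higher was 0 to 6, the 6 without BicR ethanol (SNORD116-29, SNORD41, SNORD44, SNORD55, SNORD57 and SNORD79), a fit in which LNCaP alone sets bicalutamide against ethanol and which called 0.735% of all genes higher. The members' median with bicalutamide, 0.28, was -0.07 without LNCaP bicalutamide, 0.08 without LNCaP ethanol and 0.42 without BicR ethanol. Between the lines the members' median was 0.29, and it was 0.05 without LNCaP ethanol and 0.41 without LNCaP bicalutamide. Counts from 2-fold upward within a line depended on the pseudocount, for all genes too, and RPKM is larger than CPM for short genes, so that a pseudocount of 1 weighs less on them. LNCaP bicalutamide had 9 higher and 0 lower, 16 and 1 with a pseudocount of 0.1 (all genes 2.18% and 2.43%), 3 higher with one of 5 (0.324%), 16 higher in RPKM (0.49%), and 1 lower against the DHT library. LNCaP DHT had 0 and 0, 3 and 3 with 0.1 (all genes 2.54% and 2.19%) and also in RPKM (0.699% and 0.547%), and 1 and 9 against the bicalutamide library. BicR DHT had 1 and 0, 4 lower with 0.1 (all genes 2.94%), 5 lower in RPKM (0.497%), 1 lower with total counts, and 0 higher with a pseudocount of 5 or among members with a mean of at least 100 counts. BicR bicalutamide had 0 and 0, 3 and 2 with 0.1 (all genes 0.108% each), and 2 and 2 in RPKM (0.0144% and 0.0288%). With a pseudocount of 0.1 the shares were larger among genes in the members' range of mean counts. For LNCaP DHT they were 5.78% higher and 4.87% lower, near the members' 5.56% each. For BicR DHT 7.87% were lower, near the members' 7.41%. For LNCaP bicalutamide 5.33% were higher, against 29.6% of members. For BicR bicalutamide the shares were 0.36% each, against 5.56% and 3.7% of members. Low members rest on few counts.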
